A study of Mus musculus with 2 samples.

Results

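The Schlafen family of the mouse was followed across the immune cells of the colon lamina propria, the tissue layer beneath the gut lining. The members were chosen by symbol: the rows Slfn1, Slfn2, Slfn3, Slfn4, Slfn5, Slfn8 and Slfn9, 7 of the 32285 genes in the matrices. The family was picked because its levels, above all those of Slfn4, differed between the libraries, so these levels and their ratios are a description and no test was made on them. Another 3 rows begin with the same letters, Slfn14, Slfnl1 and Slfn5os, and were not members. Levels are in CPM, the UMIs of a gene scaled to a total of 1000000 over a class, where a UMI stands for 1 captured RNA molecule.

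Schlafen genes take their name from the German verb for sleeping, because the founding member held back the growth of thymocytes. Mouse members fall into short forms (Slfn1 and Slfn2), intermediate forms (Slfn3 and Slfn4) and long forms with a helicase-like region (Slfn5, Slfn8 and Slfn9). Many of them are induced by type I interferon, and in myeloid cells their levels are known to move with differentiation and activation.

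The study compared RUNX3 fl/fl-Lyz2-Cre mice, in which Cre driven from the Lyz2 locus recombines floxed Runx3 in macrophages, monocytes and neutrophils, with RUNX3 fl/fl littermates. The mice were 8 weeks old, were given as male and were pooled, and CD11b+ colon cells were profiled with 10x Genomics 3′ chemistry in 2 libraries, 1 per group, titled Runx3_fl and Runx3. Floxed Runx3 alleles are shared by both groups in that design. The titles do not mention Cre, so the libraries are called by their titles below, and no direction is one between genotypes.

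Several facts of the libraries come before the results. The library labelled Runx3_fl held 12968 barcodes and 146204416 UMIs and the library labelled Runx3 held 8953 and 75478164, of which 11885 and 8167 cells were kept, with medians of 9573 and 5731 UMIs, and 37 barcodes were found in both. Runx3 itself was at 157 and 245 CPM in macrophages, at 261 and 228 in Ly6c2-gated cells and at 313 and 195 over all kept cells. Its direction thus differed between classes. A 3′ tag outside a deleted exon would not show a loss, and whether the tags lie outside it was not tested. The study itself measured RUNX3 by qRT-PCR and Western blot in isolated colon resident macrophages. Although the mice were given as male, Xist, the RNA of the inactive X chromosome, was found in 29.9% and 0.122% of kept cells of the libraries labelled Runx3_fl and Runx3. Y-linked UMIs were found in 66.1% and 74.3% of cells. The main Slfn4 levels are therefore also given for cells with a Y-linked UMI and no Xist UMI.

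Cells were sorted into classes by gate genes, each class requiring at least 1 UMI of its own gene and none of the gate gene of another class, as the processing section sets out. The gates gave 254 and 276 macrophages (Csf1r and C1qa, in the order Runx3_fl and Runx3), 1014 and 1511 Ly6c2-gated cells, 1378 and 1448 Csf3r-gated cells, 910 and 455 Flt3-gated dendritic cells, 1294 and 101 Ncr1-gated NK cells, 2838 and 389 Cd3e-gated T cells, and 353 and 1243 Cd79a-gated cells. The macrophage label held, with 9 of 9 other macrophage markers highest in that class in both libraries. The monocyte label did not: 0 of 7 monocyte markers were highest among the Ly6c2-gated cells in either library, so that class is called by its gate. The T, NK and Cd79a gates were filled although the cells were labelled CD11b+. Neutrophil markers were highest among Csf3r-gated cells for 7 of 7 and 6 of 7 genes. The Cd79a-gated cells of the library labelled Runx3_fl were rich in plasma cell genes, whose summed level was 15681 CPM against 1306 for B cell genes, while in the library labelled Runx3 the sums were 7706 and 6264.

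All 7 members lie together on chromosome 11, from 82951349 to 83215154 (263.8 kb, GRCm38), in the order Slfn5, Slfn9, Slfn8, Slfn2, Slfn1, Slfn4 and Slfn3. Slfn8 and Slfn9 are on the minus strand and the others on the plus strand. RefSeq promoter windows (GRCm38.p6, 250 bases before the start site to 50 after it) were found for 7 of 7 members. They were searched on both strands for the core of the interferon-stimulated response element, in a strict form, GAAANNGAAA, and a loose form without the first letter, AAANNGAAA, which the strict form contains. The strict form was in 3.44% of all 32851 windows and in those of 3 members, Slfn5, Slfn8 and Slfn9. The loose form was in 10.6% of all windows and in those of 5 members, the same 3 with Slfn1 and Slfn4. Both forms were settled on after the windows had been read, and a match is a description of letters, not a site.

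The windows of Slfn4, the member with the highest ratios, and Slfn2, whose ratio was below 1 in macrophages, are shown with those of the 3 members that held the strict form. Each is written 5′ to 3′ on the strand of the gene, with matches to the loose form in capitals.
Slfn4, chr11:83174936-83175235, strand +: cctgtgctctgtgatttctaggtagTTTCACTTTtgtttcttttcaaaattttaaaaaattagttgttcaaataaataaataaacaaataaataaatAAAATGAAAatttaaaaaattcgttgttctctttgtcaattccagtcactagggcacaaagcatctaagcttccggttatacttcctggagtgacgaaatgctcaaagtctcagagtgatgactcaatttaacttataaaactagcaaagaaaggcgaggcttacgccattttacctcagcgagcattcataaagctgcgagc
Slfn2, chr11:83064862-83065161, strand +: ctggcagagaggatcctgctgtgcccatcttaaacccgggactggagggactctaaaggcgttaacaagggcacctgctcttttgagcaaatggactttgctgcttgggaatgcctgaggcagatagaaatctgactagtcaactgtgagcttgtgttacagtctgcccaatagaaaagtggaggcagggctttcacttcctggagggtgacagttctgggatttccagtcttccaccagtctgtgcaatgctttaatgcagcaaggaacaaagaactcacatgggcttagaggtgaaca
Slfn5, chr11:82951852-82952151, strand +: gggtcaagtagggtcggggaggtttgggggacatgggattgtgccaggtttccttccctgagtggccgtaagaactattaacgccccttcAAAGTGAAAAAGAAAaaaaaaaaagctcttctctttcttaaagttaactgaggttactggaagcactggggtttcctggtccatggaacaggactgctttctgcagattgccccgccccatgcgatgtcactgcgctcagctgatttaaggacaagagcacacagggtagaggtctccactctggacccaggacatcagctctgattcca
Slfn8, chr11:83020761-83021060, strand -: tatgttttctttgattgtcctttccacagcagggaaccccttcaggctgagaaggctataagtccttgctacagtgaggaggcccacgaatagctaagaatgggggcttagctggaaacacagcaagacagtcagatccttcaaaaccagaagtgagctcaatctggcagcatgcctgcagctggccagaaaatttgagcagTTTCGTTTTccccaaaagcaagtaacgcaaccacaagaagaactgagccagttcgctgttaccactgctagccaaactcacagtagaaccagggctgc
Slfn9, chr11:82991781-82992080, strand -: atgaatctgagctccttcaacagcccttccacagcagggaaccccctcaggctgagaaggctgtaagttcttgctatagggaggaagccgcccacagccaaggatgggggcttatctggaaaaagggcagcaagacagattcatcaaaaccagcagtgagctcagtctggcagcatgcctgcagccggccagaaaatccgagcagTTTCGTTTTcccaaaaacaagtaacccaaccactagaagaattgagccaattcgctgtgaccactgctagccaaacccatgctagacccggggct
Slfn4 held 2 loose matches, 225 and 153 bases before its start site, and no strict one. The matches of Slfn8 and Slfn9 were the same letters on the opposite strand, 48 and 45 bases before the start. Slfn8 had another window, not shown, for a different start site, and there the match lay 136 bases before the start. These letters were in neither form in the windows of Slfn2 and Slfn3.

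Slfn4, an intermediate member known from inflammatory myeloid cells, was the Schlafen gene that differed most between the libraries in macrophages. The library labelled Runx3_fl had 15.1 CPM (95% Poisson interval 11.1 to 20.0, 48 UMIs) and the library labelled Runx3 had 151 (135 to 168, 334 UMIs), a ratio of 9.96 (7.34 to 13.8). The intervals did not overlap, but with 1 library per group they cover counting error only, and no replicate stands behind the difference. Cells with a Y-linked UMI and no Xist UMI gave 17.1 and 127. Allowing the gates to overlap, which admitted 719 and 1083 macrophages, gave 17.4 and 175.

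The level of Slfn4 was highest among Csf3r-gated cells, at 122 (115 to 129) and 368 (357 to 379) CPM. This class held 60.2% of all Slfn4 UMIs but 7.59% of all UMIs in the library labelled Runx3_fl, and 37.7% against 17.2% in the other. Ly6c2-gated cells had 8.61 (6.93 to 10.6) and 223 (212 to 235), a ratio of 25.9 (20.99 to 32.4). Cells with a Y-linked UMI and no Xist UMI gave 98.2 and 337 for the Csf3r gate and 7.25 and 177 for the Ly6c2 gate, and Csf3r-gated cells without a Csf1r UMI gave 292 and 494. No neighbours in the order of Csf3r-gated, macrophage and Ly6c2-gated cells had overlapping intervals, and macrophages stood above Ly6c2-gated cells in the library labelled Runx3_fl and below them in the other.

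Slfn4 was lower in the remaining classes of the library labelled Runx3. Flt3-, Cd3e-, Cd79a- and Ncr1-gated cells had 41.5, 40.3, 38.9 and 27.8 CPM, with overlapping intervals between neighbours, against 1.35 to 1.79 in the library labelled Runx3_fl. These like levels in 4 unrelated classes could come from free RNA or from the cells themselves, which was not tested, so the differences there are not counted as expression of Slfn4. In macrophages of that library the level of 151 stood above all 4 beyond counting error.

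Slfn4 was also set against S100a8, an abundant neutrophil gene. In the library labelled Runx3 the 4 classes held 28.4 to 33.7 Slfn4 UMIs for every 100 S100a8 UMIs, Csf3r-gated cells 1.81, Ly6c2-gated cells 10.5 and macrophages 90.3. In the library labelled Runx3_fl, Cd79a-, Cd3e- and Flt3-gated cells held 34.6, 37.4 and 37.7 and Ncr1-gated cells 100, against 7.22 among Csf3r-gated cells. The proportion in the 4 classes was thus unlike that of the Csf3r-gated cells in both libraries. In the library labelled Runx3, Flt3-gated cells without any S100a8 or S100a9 UMI had 63.1 CPM of Slfn4, on 48 UMIs in 76 cells. This was above the 41.5 of the whole gate. Such Cd79a-, Cd3e- and Ncr1-gated cells had 19.9, 29.7 and 17.3, on 32, 18 and 2 UMIs. Their whole gates had 38.9, 40.3 and 27.8. No interval was taken for these subsets, so neither the higher value of the Flt3 gate nor the lower ones are read as beyond counting error. The reason was not tested.

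S100a8 itself moved with Slfn4 in macrophages, at 4.41 and 167 CPM, as did S100a9, at 6.30 and 176. The 7 neutrophil markers summed to 434 and 682. S100a8 and S100a9 are among those 7. Their gains were together larger than the gain of the sum, so the summed level of the remaining markers went down rather than up. Csf3r-gated cells differed in S100a8 as well, at 1686 and 20311. Macrophages without any S100a8 or S100a9 UMI, 229 and 49 cells, had 14.6 and 92.1 CPM of Slfn4, and such Csf3r-gated cells 22.5 and 298. The part of free or neutrophil RNA in the whole difference was not tested.

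**Figure D1:**
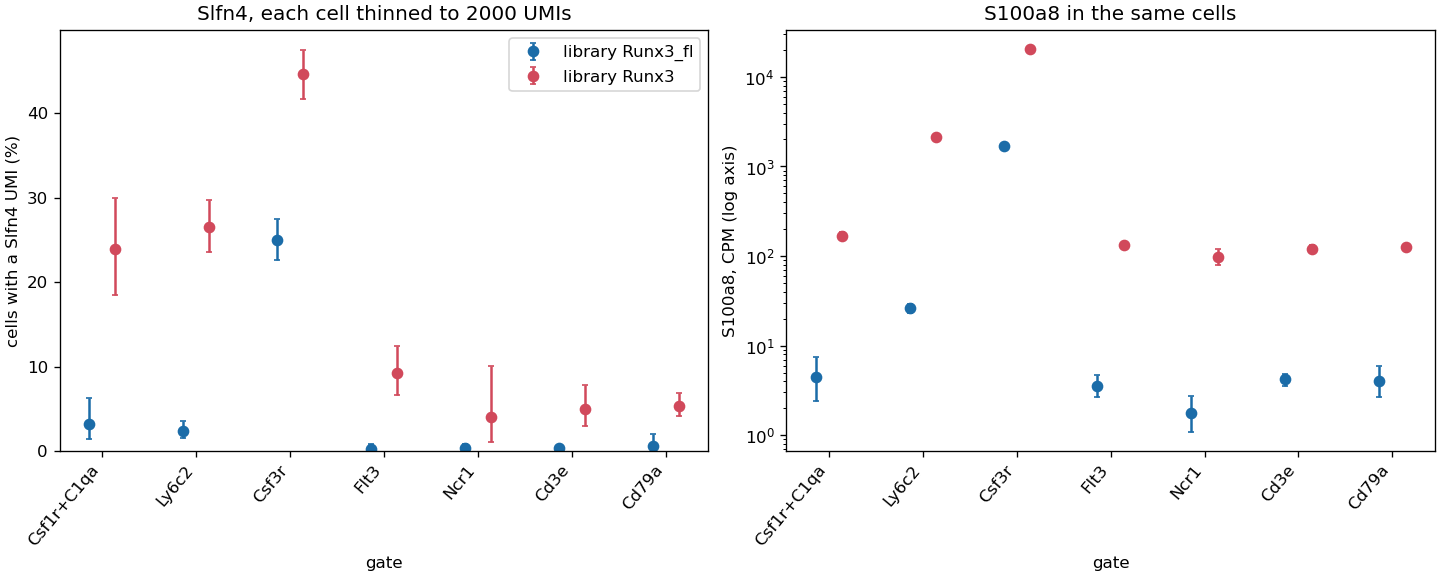
Left, share of cells with a Slfn4 UMI by gate after thinning each cell to 2000 UMIs (%, linear axis, bars are exact 95% binomial intervals). Right, S100a8 in the same gates (CPM, log axis, 95% Poisson intervals). Blue is the library labelled Runx3_fl and red the library labelled Runx3. In macrophages the share was 3.23% and 23.9%, and in the 4 gates on the right of the left panel it was 0.224% to 0.573% and 4.04% to 9.26%.

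Counted by cells rather than by molecules, Slfn4 gave the same direction. After each cell was thinned to 2000 UMIs, a Slfn4 UMI was found in 3.23% (exact 95% binomial interval 1.40 to 6.26) and 23.9% (18.5 to 30.0) of macrophages, against 12.2% and 46.7% before thinning, with 6 and 50 shallower macrophages left out. Cd79a-gated cells, given for comparison, were at 0.573% and 5.36%, and whether they express the gene was not tested. The lowest shares were 0.224% for Flt3-gated cells of the library labelled Runx3_fl and 4.04% for Ncr1-gated cells of the other. The median depths before thinning were 12785.5 and 6380.5 UMIs in macrophages and 16698 and 5561 in Cd79a-gated cells. The share in macrophages of the library labelled Runx3_fl had an interval overlapping that of Cd79a-gated cells (0.0695 to 2.05), although its level was 15.1 CPM against 1.41. Among Csf3r-gated cells the shares were 25.0% and 44.6%, above the Cd79a-gated cells beyond counting error in both libraries.

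Ly6c2, a surface antigen of inflammatory monocytes, split the macrophages. Those with a Ly6c2 UMI had 18.3 (13.04 to 24.9) and 171 (153 to 191) CPM of Slfn4, and those without one 8.13 (3.51 to 16.0) and 48.8 (28.9 to 77.1). In the library labelled Runx3 the cells with Ly6c2 were thus higher beyond counting error, and in the other library the intervals overlapped. The level in the 53 cells of the library labelled Runx3 without Ly6c2 overlapped those of Flt3-, Cd3e-, Cd79a- and Ncr1-gated cells. For Slfn5 the cells with and without Ly6c2 overlapped in that library, at 184 (165 to 205) and 182 (141 to 231) CPM, but not in the library labelled Runx3_fl, at 81.2 (69.7 to 94.1) and 50.8 (37.7 to 67.0).

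The short members differed in opposite directions in macrophages. Slfn1, the growth-arresting founder of the family, was at 30.6 (24.8 to 37.3) and 61.3 (51.5 to 72.5) CPM, a ratio of 2.01 (1.54 to 2.63). Slfn2, which keeps T cells and monocytes quiescent, was at 1293 (1254 to 1333) and 659 (626 to 694), a ratio of 0.510 (0.480 to 0.541). A Slfn2 UMI was found in 83.5% of thinned macrophages of the library labelled Runx3_fl and in 63.3% of the other, with Cd79a-gated cells at 10.3% and 16.2%. Slfn2 was thus the sole member whose interval in macrophages lay below a ratio of 1.

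Across classes, Slfn2 was highest among Csf3r-gated cells, at 1415 and 787 CPM, then in macrophages and Ly6c2-gated cells. In the library labelled Runx3_fl every neighbouring pair in its order of 7 classes was separated beyond counting error, and the top class stood 20.8 times above the bottom one, the Cd79a-gated cells at 68.1. In the library labelled Runx3 this span was 6.10 times. It was narrower at both ends, since Slfn2 was lower in the 3 myeloid classes and higher in Cd79a-gated cells, at 129, a ratio of 1.90. Flt3-gated and Ncr1-gated cells had ratios of 1.01 and 1.06, with intervals holding no difference.

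Slfn1 had another distribution. It was highest among Csf3r-gated cells, at 99.4 and 141 CPM, and lowest in Cd79a- and Ncr1-gated cells, at 0.937 and 1.70 in the library labelled Runx3_fl and 11.6 and 10.5 in the other. Cd3e-gated T cells had 20.9 and 52.8 and Flt3-gated dendritic cells 9.49 and 53.3, both above the Ncr1- and Cd79a-gated cells of the same library beyond counting error. The ratio in the Flt3-gated cells was 5.62 (4.58 to 6.91), and in the library labelled Runx3 their level overlapped that of the T cells. Among Csf3r-gated cells the ratio was 1.42, and without the cells that also had a Csf1r UMI the log2 ratio was -0.14, the opposite direction.

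**Figure D2:**
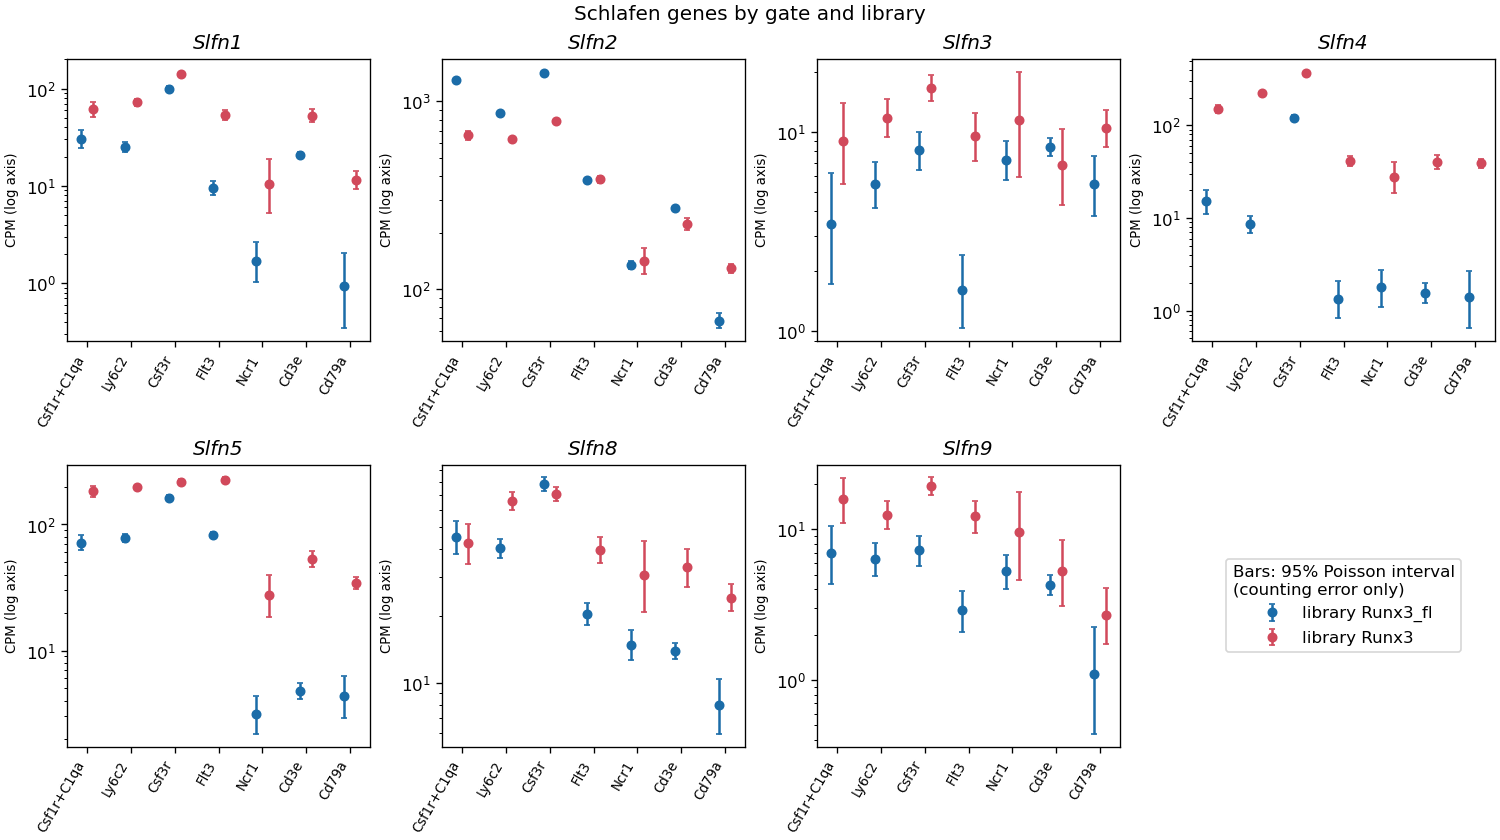
Level of each Schlafen gene by gate (CPM, log axis, each panel with its own range), with blue points for the library labelled Runx3_fl, red points for the library labelled Runx3 and bars for the 95% Poisson interval. In the Csf1r and C1qa gate (macrophages) Slfn2 is at 1293 and 659, Slfn4 at 15.1 and 151, and Slfn8 at 45.0 and 42.4.

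Slfn3, the other intermediate member, known from T cells and gut epithelium, was scarce. It was at 3.46 (1.73 to 6.20) and 9.02 (5.51 to 13.9) CPM in macrophages, on 11 and 20 UMIs. Its level was 1.62 and 9.52 in Flt3-gated cells and lay between 5.46 and 16.7 in the Ly6c2-, Csf3r-, Ncr1-, Cd3e- and Cd79a-gated cells of both libraries. Unlike the others, it did not have its highest level in a myeloid gate in the library labelled Runx3_fl. Cd3e-gated T cells (8.43) and Csf3r-gated cells (8.12) could not be separated there. Slfn9 was highest in Csf3r-gated cells of that library, at 7.25 (5.70 to 9.09), but overlapped Ncr1-gated cells, at 5.27 (4.01 to 6.80).

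Slfn5, a long member, encodes a nuclear protein. In macrophages it was at 71.8 (62.8 to 81.8) and 184 (166 to 202) CPM, a ratio of 2.56 (2.17 to 3.02). Flt3-gated dendritic cells were at 82.8 and 224. In the library labelled Runx3_fl they overlapped macrophages and Ly6c2-gated cells but lay below Csf3r-gated cells, at 163. In the other they overlapped Csf3r-gated cells, at 219, and lay above the other myeloid gates. T, NK and Cd79a-gated cells were at 3.13 to 4.81 and 27.8 to 53.4. Whether free RNA had a part in the levels of Slfn5 in T, NK and Cd79a-gated cells was not tested. In Csf3r-gated cells the ratio was 1.35 (1.27 to 1.43), and without cells that had a Csf1r UMI the log2 ratio was -0.30.

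Slfn8 and Slfn9, a neighbouring pair of long members, behaved differently from each other in macrophages. Slfn8 was at 45.0 (38.0 to 53.1) and 42.4 (34.3 to 51.9) CPM, a ratio of 0.941 whose interval of 0.718 to 1.23 holds no difference. Slfn9 was at 6.93 (4.34 to 10.5) and 15.8 (11.0 to 22.0), on 22 and 35 UMIs, and its log2 ratio of 1.08 became -0.24 when each cell was given equal weight. Slfn8 did differ in dendritic cells, at 20.5 and 39.7, and in Ly6c2-gated cells, at 40.2 and 65.6. Up to 16.8% of 90-base windows in the ends of Slfn8 transcripts and up to 28.95% in those of Slfn9 are shared with each other or with Slfn10-ps, so reads may be split between them and their levels are uncertain.

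Ratios were then set against all genes, with 1 CPM added to each level and the log2 ratio taken as Runx3 over Runx3_fl, at a limit of 1. In macrophages 4 of 7 members passed it upward (Slfn3, Slfn4, Slfn5 and Slfn9), where 15.5% of all genes with at least 10 UMIs did, and 0 of 7 passed it downward, where 3.53% of genes did. The family was chosen on these ratios, so nothing is read from the counts. The median log2 ratio was 1.08 for the members and 0.24 for all genes. The part of scaling, depth or cell makeup in the shift of all genes was not tested. Centred on that median, 2 members passed upward, Slfn4 and Slfn5, and Slfn2 passed downward.

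In the other classes the count past the limit was 3 of 7 for Ly6c2-gated cells, where 14.5% of genes passed upward and 2.39% downward, and 2 of 7 for Csf3r-gated cells, where 13.6% and 2.5% did. It was 5 of 7 for Flt3-gated cells (9.14% and 1.88% of genes), 3 of 7 for Ncr1-gated cells (7.4% and 5.95%), 4 of 7 for Cd3e-gated cells (13.5% and 7.26%) and 4 of 7 for Cd79a-gated cells (20% and 12.7%). Slfn4 was past the limit in all 7 classes and Slfn5 in 6, Csf3r-gated cells being the exception. No member passed the limit downward in any class at these settings. Over the 49 ratios of member and class, the interval lay above no difference in 37, below it in 5 and across it in 7. Of the 5 lower ones 4 were Slfn2. The share of all genes with such intervals was not counted, so nothing is read from these counts. The median log2 ratio of all genes was itself above 0 in each class, from 0.05 for Ncr1-gated to 0.33 for Csf3r-gated cells.

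**Figure D3:**
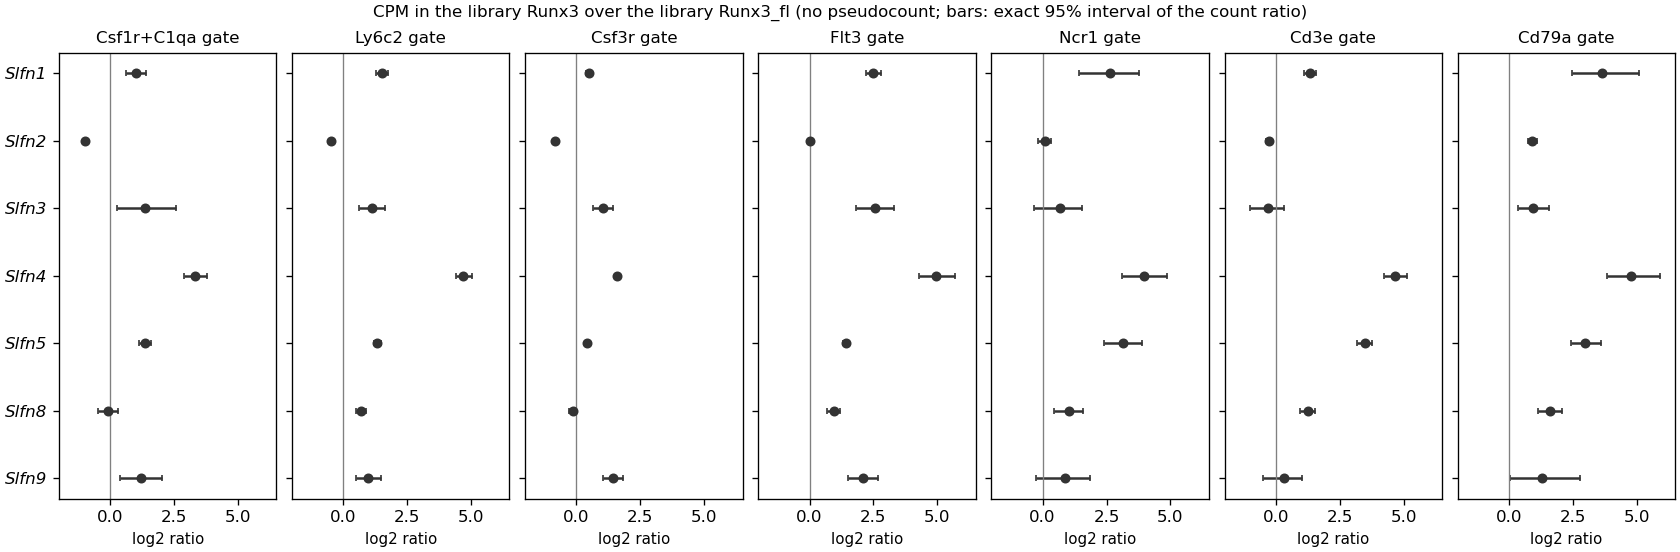
Ratio of each Schlafen gene between the libraries by gate (log2, Runx3 over Runx3_fl, without the added UMI; bars are exact 95% intervals of the count ratio, and the grey line is no difference). Slfn4 lies to the right in all 7 panels, and Slfn2 lies to the left in the macrophage, Ly6c2, Csf3r and Cd3e panels.

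Because Schlafen genes respond to interferon, a list of 35 interferon-response genes was read in the same cells, 33 of which are in the matrices. In macrophages, where 15.5% of all genes passed the limit upward and 3.53% downward, 11 listed genes passed upward, 6 downward and 16 neither. The median log2 ratio of the list was 0.44, against 0.24 for all genes. The 3 highest were Ifit3 (8.50 and 53.7 CPM), Ifit3b (1.89 and 12.2) and Oas2 (9.45 and 40.6), and the 3 lowest were Ifih1 (863 and 219), Rsad2 (765 and 225) and Ifit1 (96.4 and 31.6). Ifih1 encodes an RNA sensor, Oas2 an activator of RNA decay, and Rsad2 and the Ifit genes encode antiviral effectors. Macrophages thus had interferon-response genes past the limit on both sides. Of the members, Slfn4 was past it upward, while Slfn2, at -0.97, was within it.

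In the Flt3, Ncr1, Cd3e, Cd79a and Ly6c2 gates most listed genes past the limit were higher, as were most of all genes past it. In Flt3-gated cells 21 genes passed upward and 1 downward, in Ncr1-gated cells 23 and 0, in Cd3e-gated cells 22 and 0, in Cd79a-gated cells 20 and 2, and in Ly6c2-gated cells 17 and 0. Csf3r-gated cells had 9 and 3, on both sides as in macrophages. Of all genes, 9.14% passed upward and 1.88% downward for Flt3, 7.4% and 5.95% for Ncr1, and 13.5% and 7.26% for Cd3e. The shares were 20% and 12.7% for Cd79a, 14.5% and 2.39% for Ly6c2, and 13.6% and 2.5% for Csf3r. The difference between classes was not tested.

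**Figure D4:**
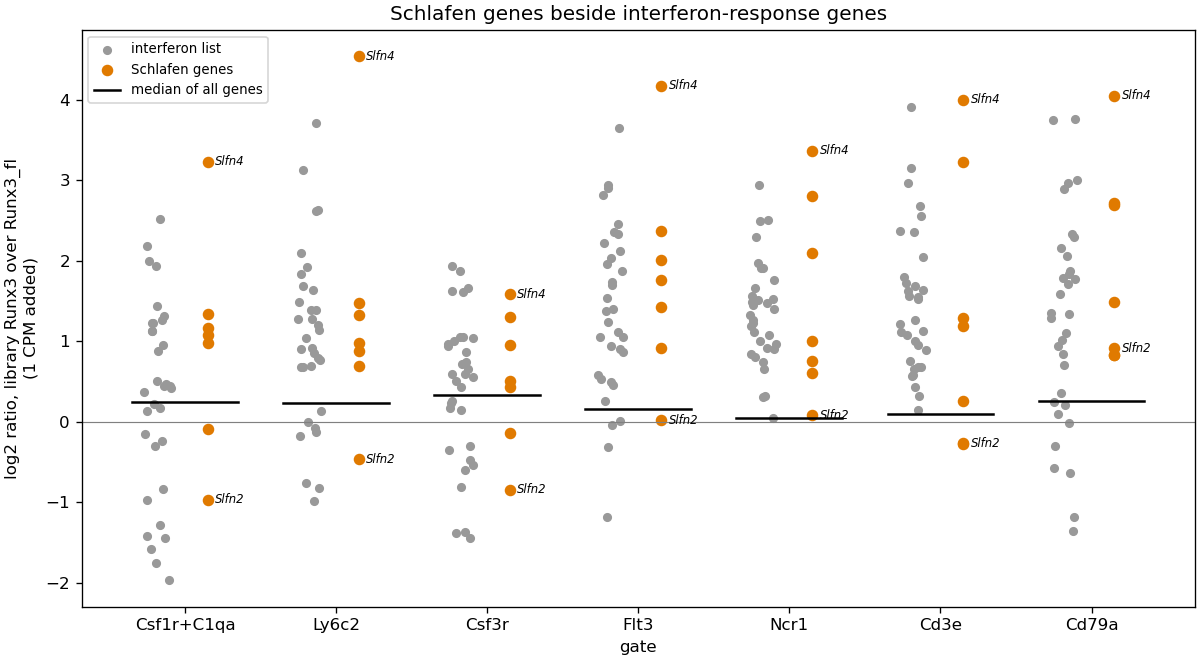
Log2 ratio between the libraries (Runx3 over Runx3_fl, 1 CPM added) for the interferon-response list (grey points) and the 7 Schlafen genes (orange points), by gate, with a black bar at the median of all genes. In the macrophage gate the grey points reach from -1.97 to 2.52, with Slfn4 above them at 3.23.

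The ligand genes were low in macrophages and went the other way. Ifnb1, encoding interferon beta, was at 24.3 and 2.25 CPM, on 77 and 5 UMIs, and Ifng, encoding interferon gamma, at 10.1 and 3.16. The receptor genes Ifnar1, Ifnar2, Ifngr1 and Ifngr2 had log2 ratios of 0.29, 0.54, 0.40 and 0.93, all within the limit. A list of 10 genes of tissue dissociation stress also moved, with 6 past the limit upward in macrophages, 0 downward and a median log2 ratio of 1.29. Of all genes there, 15.5% passed upward and 3.53% downward. The part of stress in the Schlafen ratios was not tested.

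Within a library, UMIs of some members were found more often in cells that also had an Ifit UMI, after thinning to 2000 UMIs. Among Csf3r-gated cells Slfn4 was found in 45.6% (39.8 to 51.5) of cells with and 18.8% (16.3 to 21.3) of cells without an Ifit UMI in the library labelled Runx3_fl. The corresponding shares were 59.3% (54.1 to 64.3) and 37.7% (34.4 to 41.2) in the library labelled Runx3. Slfn5 gave 39.5% and 18.0%, then 45.5% and 22.4%, and Slfn1 gave 35.7% and 17.4%, then 32.5% and 20.8%. Slfn1, Slfn4 and Slfn5 were thus higher beside Ifit in this gate in each library. Cells are not replicates, and the binomial intervals cover counting error only.

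Slfn5 was also higher beside Ifit beyond counting error in some other gates. Ly6c2-gated cells of the library labelled Runx3 had 44.9% with and 16.6% without Ifit, thinning having left out 683 of their 1511 cells, and Flt3-gated cells there 49.4% and 22.8%. In macrophages the intervals for Slfn5 overlapped in both libraries, at 21.4% (11.6 to 34.4) and 9.38% (5.65 to 14.4), then 33.3% (20.8 to 47.9) and 21.1% (15.3 to 27.9). They also overlapped in Flt3-gated cells of the library labelled Runx3_fl, at 21.7% (10.9 to 36.4) and 14.6% (12.3 to 17.2). For Slfn4 in macrophages the pattern was not detectable at this depth, with 29.4% (17.5 to 43.8) and 22.3% (16.4 to 29.2) in the library labelled Runx3 and 3.57% and 3.12% in the other. Slfn4 in Flt3-gated cells of the library labelled Runx3 was 10.3% and 8.98%, with overlapping intervals. In Ly6c2-gated cells it was 3.0% and 2.34% in the library labelled Runx3_fl, with overlapping intervals, and 37.3% and 23.5% in the other, without overlap. Slfn2 was found more often beside Ifit, without overlap, in Ly6c2-gated cells of both libraries, at 84% and 57.3%, then 68.1% and 53.0%. The same held in Flt3-gated cells of both libraries and in Csf3r- and Cd79a-gated cells of the library labelled Runx3. Its intervals overlapped in macrophages, Ncr1- and Cd3e-gated cells of both libraries and in Csf3r- and Cd79a-gated cells of the library labelled Runx3_fl. Slfn1 in both libraries and Slfn5 in the library labelled Runx3_fl (25% and 8.3%) were likewise higher beside Ifit in Ly6c2-gated cells, without overlap.

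Over the 14 points of class and library, the members could be ordered by how alike their log levels were. Slfn1 and Slfn8 were the closest pair (Pearson r = 0.89), followed by Slfn5 and Slfn8 (r = 0.88) and Slfn4 and Slfn8 (r = 0.86), and Slfn2 and Slfn3 were unrelated (r = -0.05). The points share their libraries and depth, so these values are descriptive. Among 10467 genes, the most alike to Slfn4 were Dedd2 (0.95), Ifit3b (0.95) and Atg7 (0.94), and to Slfn5 Nfam1, Stxbp6 and Dhx58 (0.98 each). The nearest to Slfn2 were Slc16a3, Zeb2 and Calhm6 (0.98 each), and to Slfn1 Oas3 (0.96), 1600014C10Rik (0.94) and Ltb4r1 (0.94). Slfn8 was nearest to Notch2 (0.97), Rtp4 (0.96) and Gm15832 (0.96), Slfn9 to Mapk3 (0.95), Lgals9 (0.93) and Ppp1r9b (0.93), and Slfn3 to Gpat3 (0.89), Ddx58 (0.88) and Pef1 (0.87).

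The rows outside the family were nearly silent. Slfn14 had 9 and 13 UMIs over all kept cells, Slfnl1 4 and 0, and Slfn5os, which overlaps Slfn5 on the opposite strand, 21 and 41. Slfn5 had 5942 and 9547 UMIs in the same cells.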

How the data were processed

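CD11b+ colon lamina propria cells were profiled in 2 libraries, 1 per group. The deposited matrices hold UMI counts of genes in called cells, as whole numbers that the authors made with Cell Ranger 7.1.0 and did not normalize. The submitters' processing notes name mm10 and Seurat 4. Whether intronic reads were counted is not given in the sources used here. A 3′ protocol counts each molecule 1 time at its end, so levels were not scaled by gene length, and levels of different genes were not ranked. Gene IDs were placed in GENCODE M21 (GRCm38), where 32158 of 32285 were found.

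Cells with 200 to 6000 genes and at most 15% mitochondrial UMIs were kept, and the upper limit was the sole treatment of doublets. A cell passed a gate with at least 1 UMI. Macrophages had Csf1r and C1qa, Ly6c2-gated cells Ly6c2 without C1qa, and the other classes Csf3r, Flt3, Ncr1, Cd3e or Cd79a. Cells passing the gate of another class were left out, with Ly6c2 ignored outside its own class. For each class, the counts of all its cells were added up and scaled to CPM. With 1 library per group there was no test and no p-value. Intervals are 95% (Poisson for levels, conditional binomial for ratios, Clopper-Pearson for shares) and cover counting error only. A log2 ratio has 1 CPM added, while a ratio printed with its interval has none. Genes with at least 10 UMIs in a class over both libraries formed the background. Cells were thinned to 2000 UMIs before shares of positive cells were taken. Likeness was Pearson's r of log2 levels over 14 points among genes reaching 10 CPM, naming 3 genes for each member.

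Named genes were the members, the other rows starting with Slfn, Runx3, Xist, the 3 highest and 3 lowest of the interferon list, the interferon and receptor genes, and the genes most alike. The members, gates and lists were chosen with earlier results of these data known. The ratio step was tested on simulated data. Alternatives were other gates, limits on cells, depths of thinning, pseudocounts and weightings. Tools were matplotlib 3.10.9, pandas 2.3.3, scipy 1.17.1, numpy 2.4.6 and Python 3.11.15.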

Additional observations from a re-analysis of the deposited data

Results flagged for a closer look

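The ratio of Slfn2 between the libraries pointed in opposite directions in different classes, beyond counting error in each. Its log2 ratio was lowest in macrophages, at -0.97, and highest in Cd79a-gated cells, at 0.91. Slfn8 was lowest among Csf3r-gated cells, at -0.14, and highest among Cd79a-gated cells, at 1.49. The Cd79a-gated cells differed in makeup, with plasma cell genes summing to 15681 and 7706 CPM and B cell genes to 1306 and 6264, and the part of this was not tested. With 1 library per group neither difference was tested.

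Cells that passed no gate, or more than one, were in none of the comparisons, yet held Schlafen UMIs above the limit that a count of 0 allows. In the order Runx3_fl and Runx3, Slfn4 was at 14.8 and 158 CPM there, close to the macrophage levels of 15.1 and 151. Slfn5 was at 44.0 and 133, Slfn1 at 21.2 and 62.6, and Slfn8 at 30.1 and 48.6. Slfn2 was nearly level, at 516 and 500.3. The scarce members were Slfn3, at 7.53 and 10.5, and Slfn9, at 4.20 and 9.56. Slfn5os was at 0.205 and 0.486.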

How the results depend on the processing

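Every Slfn4 ratio stayed above 0 in each class under each alternative run. In macrophages its log2 ratio of 3.23 ranged from 2.45 to 3.53, with 2.68 when 10 CPM were added, 2.58 in cells without S100a8 or S100a9 UMIs and 2.45 in macrophages without Ly6c2. In Csf3r-gated cells it was 0.76 without cells that had a Csf1r UMI (292 and 494 CPM). The count of members past the limit upward in macrophages fell from 4 to 2 when ratios were centred on the median gene, when 10 CPM were added and in cells without S100a8 or S100a9 UMIs. The count downward went from 0 to 1, Slfn2, with 2 UMIs of the gate gene, with no limits on cells, without the 5% of cells with the most UMIs, when centred, and in cells without S100a8 or S100a9 UMIs. Centring also took the interferon genes past the limit upward in macrophages from 11 to 7.

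Some ratios whose interval excluded no difference changed sign, among them Slfn1 in Ncr1-gated cells (2.10 as reported) and Slfn9 in Flt3-gated cells (1.76). With gates that overlap, Slfn2 was at 0.075 in Ly6c2-gated cells and 0.070 in Cd3e-gated cells, and Slfn8 at 0.038 in Csf3r-gated cells. With each cell weighted equally, Slfn9 was at -0.24 in macrophages and Slfn1 at -0.038 in Csf3r-gated cells, and the Slfn4 level in macrophages of the library labelled Runx3 was 239. In cells without S100a8 or S100a9 UMIs, Slfn9 was at -0.13 in macrophages, -0.085 in Flt3-gated and -0.32 in Cd79a-gated cells, Slfn8 at 0.068 in Csf3r-gated, Slfn1 at -1.48 in Ncr1-gated and Slfn2 at 0.16 in Cd3e-gated cells. Of all 49 ratios in those cells 40 kept their sign, and Slfn9, whose interval had held no difference, was at -2.67 in Ncr1-gated and -0.96 in Cd3e-gated cells. Without Csf1r UMIs, Slfn1 was at -0.14 and Slfn5 at -0.30 in Csf3r-gated cells. The cause was not tested. The Slfn4 share in macrophages of the library labelled Runx3_fl was 0.398% when thinned to 1000 UMIs and 12.2% unthinned, and that of the library labelled Runx3 was 46.7% unthinned. The subsets by S100a8 or S100a9, by Csf1r and by Y-linked UMIs were chosen after seeing the data.

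No paired analysis was possible because each group had 1 library. Library, batch and mouse cannot be told apart from the group, depth was equalised only for shares of cells, and the scarce members Slfn3 and Slfn9 rest on few UMIs in macrophages.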
